A study of Arabidopsis thaliana with 4 samples.

Results

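The 10 genes described here encode enzymes and subunits that carry glutamate-derived precursors to chlorophyll, and they were taken by locus from the 33539 genes and assembled loci of the gene table that were used. They are HEMA1, CHLH, CHLI1, CHLD, GUN4, CHLM, CRD1, PORB, PORC and CHLG, chosen by name, and none of them was lost to a filter on low values. Earlier results of these data were known when the choice was made. Poly(A) RNA came from 5-day-old Arabidopsis seedlings grown on MS medium with no kanamycin or with 50 mg/l, and 1 library was made for each of 4 conditions: control, control + kanamycin, wbc19 mutant and wbc19 mutant + kanamycin. The control is the homozygous line SALK_064816C, whose T-DNA lies upstream of TRANSPARENT TESTA 4 and was used as an insertion that disrupts no gene. The wbc19 mutant is the homozygous line SALK_107731, with a T-DNA in the gene of the ABC transporter WBC19. Both lines carry the NPTII kanamycin resistance gene of that T-DNA, no library came from plants without it, and each genotype is a single insertion line, so line and genotype cannot be told apart.

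Chlorophyll and heme share their first steps in the plastid. Glutamate bound to its tRNA is reduced and rearranged to 5-aminolevulinic acid, and this is built into protoporphyrin IX, where ferrochelatase inserts iron for heme or Mg-chelatase inserts magnesium for chlorophyll. Mg-protoporphyrin is then methylated, given the fifth ring, reduced in light by protochlorophyllide oxidoreductase (POR) and given its phytol tail. The pathway is known for tight control in greening seedlings, since free intermediates produce reactive oxygen in light, and several of its steps depend on iron or magnesium.

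Each condition had a single library, so no difference below has a replicate check and no p-value is given. The abundances are FPKM, fragment numbers scaled to transcript length and sequencing depth. The reads behind a value were estimated from the smallest FPKM steps of a library, and 1 read on a transcript of 1000 bases was worth 1.13 FPKM in control, 0.6 in control + kanamycin, 0.688 in mutant and 1.19 in mutant + kanamycin. These steps imply 883392, 1666670, 1453490 and 840336 reads in that order, fewer than the average of uniquely mapped reads per library in the paper. Only a fixed range of steps was searched, so depths beyond it could not be found. Genes above 0 numbered 15072, 11090, 9013 and 13217, more in the libraries with fewer implied reads. Read numbers and intervals below carry this doubt about depth. Intervals are exact 95% intervals on these estimated reads. They cover counting error only and say nothing of differences between plants, and copies made by PCR could not be told from separate molecules. WBC19 itself, on chromosome 3 from 20433878 to 20436390 in TAIR10, had reads only in the libraries labelled mutant. It was listed at 0 in both control libraries, where 3 reads would have given 1.47 FPKM without and 0.778 FPKM with kanamycin, and at 3.00 FPKM (10 estimated reads) and 2.30 FPKM (4 estimated reads) in the libraries labelled mutant and mutant + kanamycin. The T-DNA position within the gene was not examined here, so these few reads cannot decide whether the labels hold. Directions between the lines are therefore directions between labelled libraries. The labelled tissue is the seedling. Summed over 6 markers of green shoot, the level ran from 15644 to 21268 FPKM with none at 0, and over 10 root markers it ran from 571 to 1381 FPKM, with 3, 4, 7 and 4 of the 10 at 0 in control, control + kanamycin, mutant and mutant + kanamycin. In the library labelled mutant the root markers thus had the highest sum and the most genes at 0. The root sum was lower with kanamycin in both lines, 682 against 1028 FPKM in the control line and 571 against 1381 in the line labelled mutant. The sum over 4 seed storage genes was 12.0 FPKM in control and 19.8 in mutant, with all 4 at 0 in both libraries with kanamycin. The part of these markers in the results below was not tested. In such bulk samples, fewer cells of a type and less RNA per cell cannot be told apart.

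Reads of about 25 to 45 bases can match more than one gene, so the sequences that members share with their closest relatives are given first. Of the 2048 windows of 36 bases in the HEMA1 transcript, 17 (0.830%) occurred exactly elsewhere in the nuclear genome, all in HEMA2. For CHLI1 it was 9 of 1573 (0.572%), all in CHLI2, for PORB 13 of 1519 (0.856%), all in PORA, and for the other 7 genes 0. With up to 2 mismatches the shares were 4.98% for HEMA1 against HEMA2, 5.72% for CHLI1 against CHLI2 and 3.49% for PORB against PORA. Mismatches were allowed only against close relatives of HEMA1, CHLI1, PORB and PORC, and windows shorter than 36 bases were not searched. The shares for shorter reads are therefore not known from this search. The longest exact match of HEMA1 with HEMA2 had 49 bases and that of CHLI1 with CHLI2 had 44 bases. They are shown here because reads that lie wholly inside such a stretch cannot be assigned to 1 of the genes. The shared bases are in capitals between 10 flanking bases of the member on each side, read from RefSeq TAIR10.1, chr1:21625481-21625529 and chr4:10202486-10202529, both on the minus strand.
HEMA1 shared with HEMA2: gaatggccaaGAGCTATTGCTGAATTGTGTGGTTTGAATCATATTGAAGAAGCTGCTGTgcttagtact
CHLI1 shared with CHLI2: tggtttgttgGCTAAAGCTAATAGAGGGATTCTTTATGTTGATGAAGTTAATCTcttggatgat
Both stretches lie in a single exon. PORB and PORC, the POR genes with reads in these seedlings, shared no stretch longer than 20 bases.

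Light-regulated promoters often carry a G-box, and the GLK and GATA factors that act on photosynthesis genes are known to bind short sequences of their own. The 250 bases before the annotated start of each gene were searched on both strands for 3 motifs. The G-box was CACGTG, which reads the same on the other strand. The letters taken for GLK factors were CCAATC and those for GATA factors were GATAAG, each also searched as its reverse complement, and matches of different motifs did not overlap in these promoters. The G-box was in 1 of the 10 promoters and in 6.49% of 27443 protein-coding promoters, the GLK letters in 2 of 10 and in 10.2%, and the GATA letters in 0 of 10 and in 12.3%. The G-box lay 52 to 47 bases before the start of CRD1, the most abundant of the 10 genes. The GLK letters lay 22 to 17 and 219 to 214 bases before the start of PORB and 13 to 8 bases before that of GUN4. The 150 bases next to the start of CRD1 (chr3:21076355-21076504, plus strand) and of PORB (chr4:13725396-13725545, plus strand) are printed from RefSeq TAIR10.1 with the matches in capitals.
CRD1: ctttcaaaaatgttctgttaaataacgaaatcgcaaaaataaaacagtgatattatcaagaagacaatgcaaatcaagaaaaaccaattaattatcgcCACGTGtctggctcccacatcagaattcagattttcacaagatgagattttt
PORB: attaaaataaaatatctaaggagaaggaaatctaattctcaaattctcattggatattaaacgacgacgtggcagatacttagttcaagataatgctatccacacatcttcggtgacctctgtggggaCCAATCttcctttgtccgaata
A match of these letters is a description and not a binding site. The farther PORB match lay within 64 bases that are also exon of the gene before it, AT4G27435. In GUN4 the match lay within 28 bases that are also exon of the gene on the other strand, AT3G59410.

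HEMA1 encodes glutamyl-tRNA reductase, the enzyme that commits glutamate to the pathway, and its transcript (AT1G58290, minus strand, chromosome 1 from 21623726 to 21626200) varied 4.06-fold over the 4 libraries. It was at 36.1 FPKM in control (60 reads, interval 27.5 to 46.4), 146 in control + kanamycin (460 reads, 133 to 161), 133 in mutant (363 reads, 119 to 147) and 65.8 in mutant + kanamycin (104 reads, 53.7 to 79.6). The control library was the low one, and the intervals of control + kanamycin and mutant overlapped each other and neither of the others. By level HEMA1 was therefore number 9 of the 10 genes in control and number 4 in control + kanamycin. Its paralog HEMA2, at 7.31, 6.45, 3.19 and 7.11 FPKM in the same order, stayed far below it in each library.

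Mg-chelatase is built of the subunits CHLH, which binds the porphyrin, CHLI and CHLD, an AAA+ pair that drives the insertion of magnesium, and GUN4 stimulates it by binding porphyrin too. CHLH (AT5G13630, listed as CCH1 and known as GUN5, minus strand, chromosome 5 from 4387334 to 4392227) was second of the 10 in every library, at 204 FPKM in control, 258 in control + kanamycin, 343 in mutant and 234 in mutant + kanamycin, on 779 to 2157 reads. CHLI1 (AT4G18480, listed as CHL11, minus strand, chromosome 4 from 10201672 to 10203469) was at 118, 155, 173 and 159 FPKM in the same order, on 147 to 363 reads. For CHLH the control was lowest and the library labelled mutant highest, and the same held for CHLI1, where the control interval (99.9 to 139 FPKM) lay below the levels of the other 3. CHLI1 had the smallest span of the 10 genes, 1.47-fold, and CHLH spanned 1.68-fold.

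CHLD (AT1G08520, listed as PDE166, plus strand, chromosome 1 from 2696412 to 2700959) was at 42.3 FPKM in control (88 reads, interval 34.0 to 52.2), 52.9 in control + kanamycin (207 reads, 45.9 to 60.6), 16.1 in mutant (55 reads, 12.1 to 21.0) and 39.7 in mutant + kanamycin (78 reads, 31.2 to 49.3). The library labelled mutant was the low one and its interval overlapped none of the others. The subunits were thus not in a constant ratio to each other. CHLH was 4.82 times CHLD in control, 4.87 times in control + kanamycin, 21.3 times in mutant and 5.88 times in mutant + kanamycin, all per length. The ratio of CHLH to CHLI1 stayed between 1.47 and 1.99, so in the library labelled mutant CHLD was the subunit that stood apart. CHLI2, the second CHLI gene, was at 15.5, 61.7, 18.4 and 17.9 FPKM and thus below CHLI1 in each library, with the high value in control + kanamycin.

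GUN4 (AT3G59400, minus strand, chromosome 3 from 21948717 to 21949710) was at 57.4 FPKM in control (40 reads, interval 40.7 to 77.7), 34.4 in control + kanamycin (46 reads, 25.4 to 46.4), 72.3 in mutant (83 reads, 57.3 to 89.2) and 95.4 in mutant + kanamycin (64 reads, 73.9 to 122). Here control + kanamycin was the low library. It was the only member whose level was lowest there. Exons of AT3G59410 on the opposite strand cover 86.5% of the GUN4 transcript, and whether the counting used strand is not given in the sources used here. That gene was listed at 3.21, 1.33, 0 and 2.82 FPKM.

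**Figure D1:**
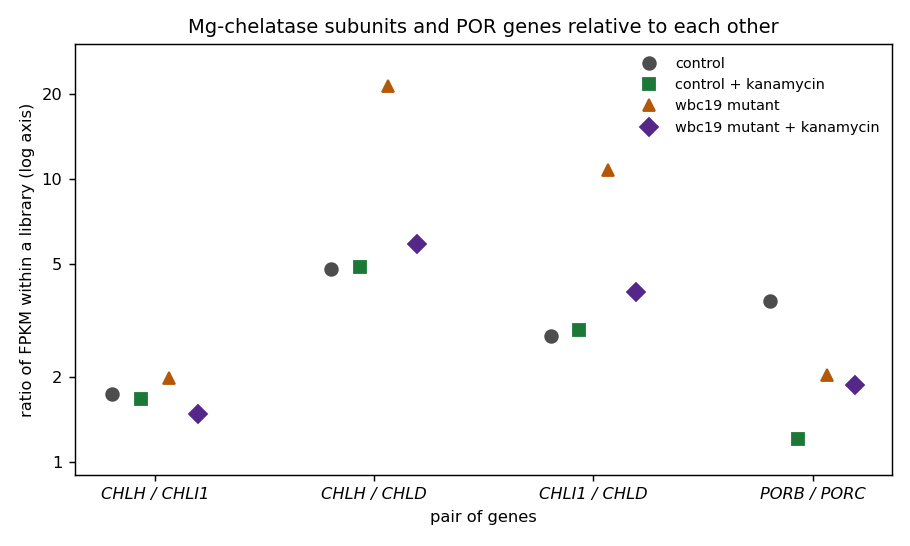
FPKM of 1 gene divided by that of another within the same library, on a log axis, for the Mg-chelatase subunits and for PORB over PORC; each symbol is 1 library. CHLH over CHLD is 21.3 in the library labelled mutant and between 4.82 and 5.88 in the other 3, whereas CHLH over CHLI1 stays between 1.47 and 1.99.

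CHLM is the methyltransferase that follows Mg-chelatase, and CRD1 is the diiron subunit of the cyclase that closes the fifth ring. CHLM (AT4G25080, plus strand, chromosome 4 from 12876846 to 12878651) was at 26.3 FPKM in control (29 reads, interval 17.9 to 38.4), 93.9 in control + kanamycin (192 reads, 80.9 to 108), 143 in mutant (255 reads, 126 to 161) and 184 in mutant + kanamycin (190 reads, 159 to 212). The control interval lay below all others, and only those of mutant and mutant + kanamycin touched. CHLM went from the lowest of the 10 genes in control to number 3 in mutant + kanamycin, a span of 7.0-fold.

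CRD1 (AT3G56940, listed as ACSF, plus strand, chromosome 3 from 21076505 to 21079856) was the most abundant of the 10 in every library, at 440 FPKM in control (502 reads), 601 in control + kanamycin (1294 reads), 700 in mutant (1316 reads) and 461 in mutant + kanamycin (500 reads). It made up 36.9%, 38.8%, 41.8% and 31.8% of the summed FPKM of the 10 genes in these libraries. The span was 1.59-fold, and the intervals of control (402 to 480 FPKM) and mutant + kanamycin (421 to 502 FPKM) overlapped. In the table its locus runs over AT3G56950 on the opposite strand, whose exons cover 9.85% of the CRD1 transcript and which was at 19.1, 115, 11.8 and 14.1 FPKM. The ratio of CRD1 to CHLM was 16.7, 6.39, 4.90 and 2.5 in the same order of libraries.

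PORB and PORC encode the light-dependent reductases that turn protochlorophyllide into chlorophyllide, PORA being the form of dark-grown seedlings. PORB (AT4G27440, plus strand, chromosome 4 from 13725546 to 13727353) was at 175 FPKM in control (209 reads, interval 152 to 200), 99.1 in control + kanamycin (224 reads, 86.7 to 113), 62.1 in mutant (122 reads, 51.5 to 74.0) and 105 in mutant + kanamycin (119 reads, 86.6 to 125). PORC (AT1G03630, plus strand, chromosome 1 from 907642 to 909376) was at 47.3 FPKM in control (50 reads, interval 35.2 to 62.5), 82.1 in control + kanamycin (163 reads, 69.8 to 95.5), 30.6 in mutant (53 reads, 22.9 to 39.9) and 56.2 in mutant + kanamycin (56 reads, 42.2 to 72.5). PORB was highest in control and PORC in control + kanamycin, and both were lowest in the library labelled mutant. PORB was 3.70 times PORC in control, 1.21 times in control + kanamycin, 2.03 times in mutant and 1.87 times in mutant + kanamycin. PORA was listed at 0 in all 4 libraries.

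CHLG, the chlorophyll synthase that attaches the phytol tail, had the widest span of the 10 genes, 12.99-fold. It (AT3G51820, listed as ATG4, minus strand, chromosome 3 from 19216003 to 19219057) was at 44.4 FPKM in control (54 reads, interval 33.2 to 57.6), 27.0 in control + kanamycin (62 reads, 20.6 to 34.4), 3.74 in mutant (8 reads, 1.72 to 7.83) and 48.6 in mutant + kanamycin (57 reads, 37.1 to 63.5). The library labelled mutant stood apart from all others, and its value rests on 8 estimated reads. In that library 171 of the 2301 genes whose mean lies in the range of the members' means (31.0 to 550 FPKM) were listed at 0, which is 7.43%, against 1.61% in control, 4.56% in control + kanamycin and 3.69% in mutant + kanamycin. No member was at 0 in any library.

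**Figure D2:**
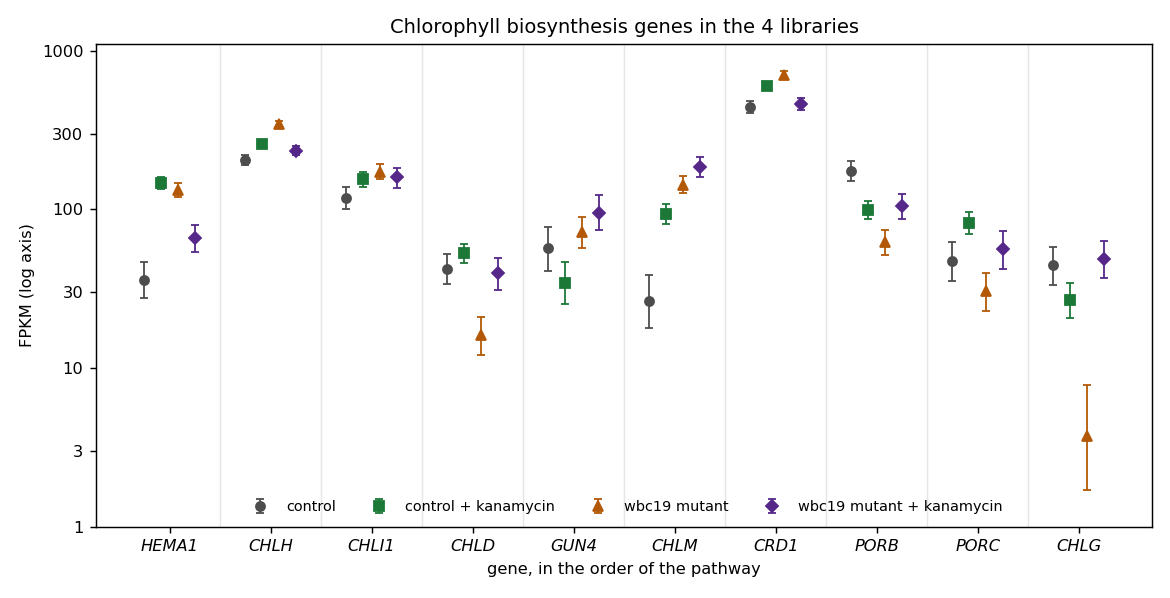
FPKM of the 10 genes, on a log axis and in the order of the pathway, in each of the 4 libraries; bars are exact 95% Poisson intervals on the estimated reads and cover counting error only. CRD1 (440 to 700 FPKM) and CHLH (204 to 343 FPKM) lead in every library, and CHLG in the library labelled mutant (3.74 FPKM) lies below all other values.

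Summed over the 10 genes, the level was 1191 FPKM in control, 1549 in control + kanamycin, 1676 in mutant and 1448 in mutant + kanamycin. The control was lowest in this sum, to which CRD1 and CHLH gave the most. The order by level changed little at the top and much below it. CRD1 was first and CHLH second in all 4 libraries, CHLI1 was number 3 or 4, and HEMA1, CHLM, PORB and GUN4 each moved over several ranks. By span the genes ran from CHLI1 (1.47-fold), CRD1 (1.59-fold) and CHLH (1.68-fold) over PORC (2.68-fold), GUN4 (2.77-fold), PORB (2.82-fold) and CHLD (3.28-fold) to HEMA1, CHLM and CHLG. On the scale of FPKM plus 1, the median span of the 10 genes was 2.76-fold and that of the 2301 genes of like mean 3.60-fold.

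To see what kanamycin went with in the line that tolerates it, control + kanamycin was set against control. HEMA1 and CHLM were at least 2-fold higher and no member was at least 2-fold lower. The differences below are of log2(FPKM + 1), a scale that understates the change of low genes, and a difference of at least 1 in size counts as 2-fold. HEMA1 was 4.06-fold higher (counting interval 3.10 to 5.41, log2 difference 1.99) and CHLM 3.57-fold higher (2.37 to 5.38, log2 difference 1.80). PORC (log2 difference 0.78), CRD1 (0.45), CHLI1 (0.39), CHLH (0.34) and CHLD (0.32) were higher by less than 2-fold, and PORB (-0.82), GUN4 (-0.72) and CHLG (-0.70) were lower by less. The interval of the ratio held 1 for CHLD alone. So 2 of 10 members were past the size in the upward direction, where 26.6% of the 9761 genes averaging 5 FPKM or more were and 21.8% of the genes in the members' range of means. In the downward direction it was 0 of 10, beside 30.8% and 19.9%. The upward share of members was near the background. The median log2 difference of the members was 0.36, that of the genes in their range 0.06.

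Set against control, the library labelled mutant had HEMA1 and CHLM at least 2-fold higher and CHLD, PORB and CHLG at least 2-fold lower. CHLM was 5.43-fold higher (counting interval 3.63 to 8.14, log2 difference 2.40) and HEMA1 3.67-fold higher (2.79 to 4.92, log2 difference 1.85). CHLG was 11.9-fold lower (5.25 to 27.0, log2 difference -3.26), PORB 2.82-fold lower (2.24 to 3.55, log2 difference -1.48) and CHLD 2.62-fold lower (1.86 to 3.76, log2 difference -1.34). Of the others, CHLH (log2 difference 0.75), CRD1 (0.67), CHLI1 (0.55) and GUN4 (0.33) were higher and PORC (-0.61) lower by less than 2-fold, with 1 inside the interval of GUN4 alone. The 2 members higher stand beside 23.9% of the genes averaging 5 FPKM or more and 21.9% of those in the members' range. The 3 members lower stand beside 37.2% and 24.7%. Both shares of the members were near the background. The median log2 difference was 0.44 for the members, -0.07 for the genes in their range and -0.28 for all genes averaging 5 FPKM or more. This comparison and the one before it share the control library, in which HEMA1 and CHLM had their lowest values, and the 2 comparisons below share the mutant + kanamycin library.

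With kanamycin in both, mutant + kanamycin was set against control + kanamycin, which are the libraries of the plants with stunted roots and of the plants without symptoms in the study's description. GUN4 was 2.77-fold higher (counting interval 1.86 to 4.12, log2 difference 1.44) and HEMA1 2.23-fold lower (1.80 to 2.79, log2 difference -1.14). CHLM, 1.96-fold higher (1.597 to 2.41, log2 difference 0.96), lay just below the size. CHLG (log2 difference 0.82), PORB (0.08) and CHLI1 (0.04) were higher, and PORC (-0.54), CHLD (-0.40), CRD1 (-0.38) and CHLH (-0.14) were lower, by less than 2-fold. The interval held 1 for PORB and CHLI1. Here 1 of 10 members was higher, beside 29.0% and 17.8% of the genes in the same background sets as above, and 1 of 10 was lower, beside 30.4% and 26.7%. The members' median was -0.05 and their median size of difference 0.47, against 0.86 for the genes in their range. The call of HEMA1 and the miss of CHLM depend on the scaling, and the call of GUN4 does not. With the libraries rescaled by median ratio HEMA1 came to -0.96 and CHLM to 1.14, and with upper quartiles to -0.99 and 1.11, so that GUN4 and CHLM were then higher and no member lower.

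Within the line labelled mutant, kanamycin went with at least 2-fold higher CHLG and CHLD and lower HEMA1. CHLG was 12.99-fold higher (counting interval 5.85 to 29.9, log2 difference 3.39), against the 8 estimated reads of the library labelled mutant, and CHLD was 2.47-fold higher (1.71 to 3.53, log2 difference 1.25). HEMA1 was 2.02-fold lower (1.62 to 2.53, log2 difference -1.001), at the very edge of the size, and missed it when rescaled by median ratio (-0.87). PORC (log2 difference 0.86), PORB (0.74), GUN4 (0.40) and CHLM (0.36) were higher, and CRD1 (-0.60), CHLH (-0.55) and CHLI1 (-0.12) were lower, by less than 2-fold, with 1 inside the intervals of GUN4 and CHLI1. The 2 members higher stand beside 35.7% and 23.6% of the background genes and the 1 lower beside 27.1% and 26.1%. The median log2 difference was 0.38 for the members and -0.08 for the genes in their range.

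**Figure D3:**
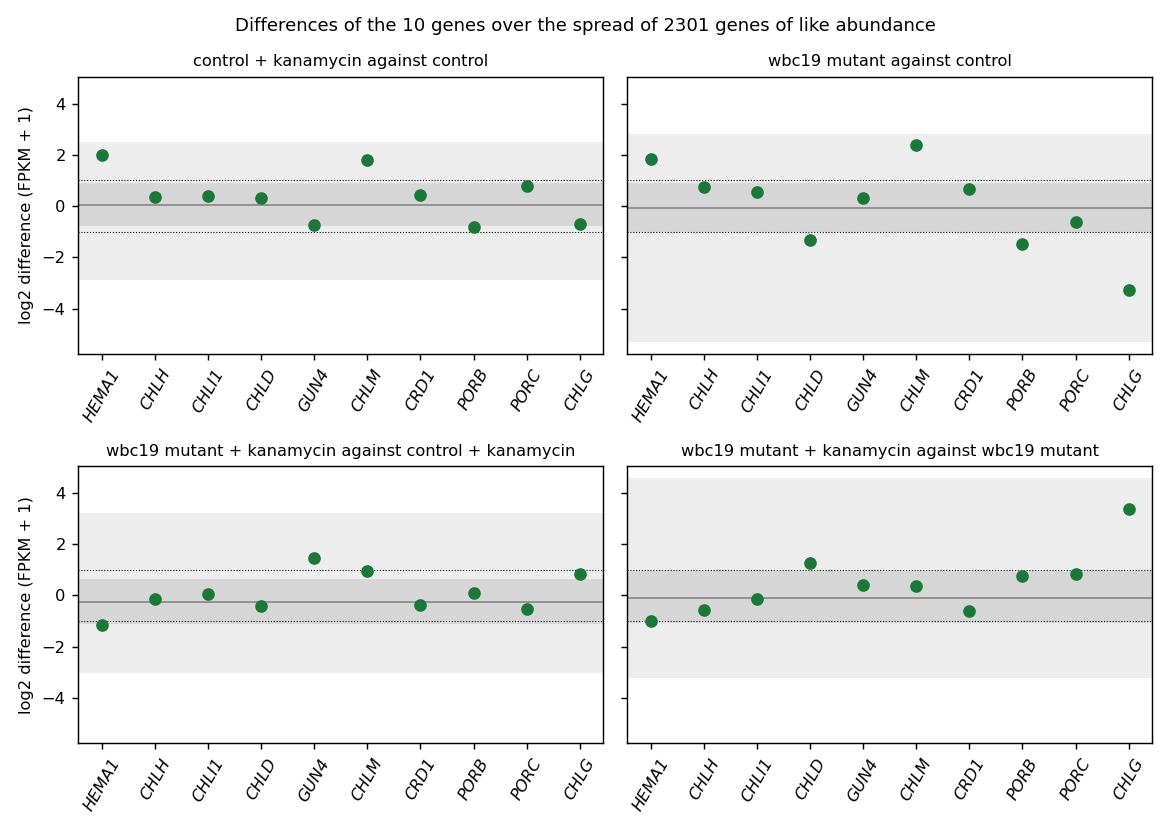
Log2 differences of FPKM + 1 of the 10 genes in the 4 comparisons; the dark and light bands hold the middle 50% and 90% of the 2301 genes in the members' range of means, the grey line is their median, and dotted lines mark 2-fold. Every one of the 40 points lies inside the light band, including CHLG at -3.26 and 3.39.

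The comparison of kanamycin with no kanamycin could be made in each line on its own libraries. In the control line, 7 of 10 members were higher with kanamycin, and in the line labelled mutant 6 of 10. For 7 of 10 the sign differed between the lines: HEMA1, CHLH, CHLI1 and CRD1 were higher with kanamycin in the control line and lower in the other, and GUN4, PORB and CHLG the reverse. Opposite signs were found for 48.5% of the 2301 genes in the members' range. The sign of CHLI1 in the line labelled mutant turned with rescaling by median ratio (-0.12 to 0.01). CHLD, CHLM and PORC were higher with kanamycin in both lines. Opposite differences of at least 2-fold in both lines were found for HEMA1 alone, 1 of 10 beside 12.0% of the genes in the range.

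**Figure D4:**
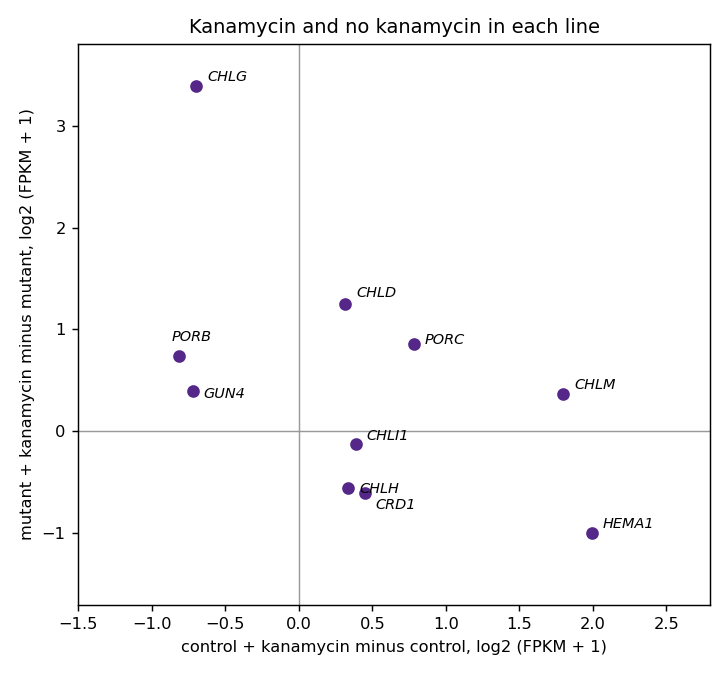
Log2 difference of FPKM + 1 between kanamycin and no kanamycin in the control line (x axis) and in the line labelled mutant (y axis), 1 point per gene; the axes share no library. HEMA1 lies at 1.99 and -1.001, CHLG at -0.70 and 3.39, and CHLM at 1.80 and 0.36.

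In the same way, the line labelled mutant could be set against the control line without and with kanamycin. HEMA1 was higher without it (log2 difference 1.85) and lower with it (-1.14), CHLH (0.75 and -0.14) and CRD1 (0.67 and -0.38) followed that order, and PORB (-1.48 and 0.08) and CHLG (-3.26 and 0.82) were lower without and higher with kanamycin. The sign of CHLH with kanamycin turned to 0.04 with rescaling by median ratio and to 0.01 with upper quartiles. These 5 of 10 stand beside 47.5% of the genes in the members' range. CHLM was higher in the line labelled mutant in both (2.40 and 0.96), as were GUN4 (0.33 and 1.44) and CHLI1 (0.55 and 0.04), and CHLD (-1.34 and -0.40) and PORC (-0.61 and -0.54) were lower in both.

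Another 51 genes of tetrapyrrole metabolism were followed in 6 lists, of which 43 had a mean of at least 1 FPKM and 6 were listed at 0 in all 4 libraries. In control + kanamycin against control 13 of the 43 were at least 2-fold higher and 11 lower, beside 24.3% and 35.8% of all genes with such a mean. In mutant against control it was 10 and 14, beside 20.1% and 43.3%. In mutant + kanamycin against control + kanamycin it was 10 and 12, beside 32.2% and 28.4%. In mutant + kanamycin against mutant it was 13 and 10, beside 39.0% and 23.1%. The medians of the 43 genes, 0.20, 0.00, -0.08 and 0.01 on the log2 scale, were near 0 in all 4 comparisons.

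Of the steps from glutamate to protoporphyrin IX, upstream of Mg-chelatase, 13 of 15 genes had a mean of at least 1 FPKM. With kanamycin in the control line 1 was at least 2-fold higher and 4 were lower, and in mutant against control 2 were higher and 5 lower (median -0.82). All genes with such a mean were lower in 35.8% and 43.3% of cases in these comparisons, so the shares of lower genes in the list were near or below the background. In mutant + kanamycin 3 were higher and 3 lower against control + kanamycin, and 3 and 2 against mutant. The shares of all genes were 32.2% and 28.4%, and 39.0% and 23.1%. GSA1, the aminotransferase that forms 5-aminolevulinic acid, was at 73.8 FPKM in control, 80.8 in control + kanamycin, 175 in mutant and 31.7 in mutant + kanamycin. HEMB1, which joins 2 such molecules to porphobilinogen, was at 85.5, 27.6, 47.9 and 101 FPKM in that order and thus lowest in control + kanamycin, as GUN4 was. HEME2, a uroporphyrinogen decarboxylase, was at 68.5, 34.3, 32.6 and 47.4 FPKM. PPOX, the protoporphyrinogen oxidase, was at 36.4, 73.4, 5.34 and 44.8 FPKM. Its low value, on 12 estimated reads, was in the library labelled mutant, where CHLD, PORB, PORC and CHLG were also lowest.

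In the magnesium branch itself, 5 of 6 further genes had such a mean. In mutant + kanamycin against control + kanamycin 3 of the 5 were at least 2-fold higher and 1 was lower, with a median log2 difference of 1.67. The shares of all genes with such a mean were 32.2% and 28.4%. The counts of higher and lower genes were 1 and 2 in control + kanamycin against control, 0 and 1 in mutant against control, and 2 and 0 in mutant + kanamycin against mutant. Beside these counts the shares of all genes were 24.3% and 35.8%, 20.1% and 43.3%, and 39.0% and 23.1%. PCB2, the divinyl reductase, was at 52.1 FPKM in control, 5.88 in control + kanamycin, 28.0 in mutant and 79.5 in mutant + kanamycin. AT5G58250, a Ycf54-like protein known to act with CRD1 in the cyclase, was at 84.3, 14.4, 17.0 and 95.7 FPKM in that order, while CRD1 itself was high in the libraries in which this gene was low. In control + kanamycin PCB2 and AT5G58250 rested on 12 and 16 estimated reads. CAO, which makes chlorophyll b from chlorophyll a, was at 36.3, 18.1, 67.3 and 59.9 FPKM. CHLI2 was the gene that was lower, from 61.7 to 17.9 FPKM.

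FLU and PGR7 act on glutamyl-tRNA reductase, the product of HEMA1: FLU inhibits it and PGR7 binds it at the thylakoid membrane. FLU was at 54.6 FPKM in control, 87.5 in control + kanamycin, listed at 0 in mutant and at 22.9 in mutant + kanamycin. PGR7 was at 16.1, 63.6, 41.6 and 3.55 FPKM in the same order. PGR7 was thus highest in the same libraries as HEMA1, control + kanamycin and mutant, of which FLU was highest in the first and at 0 in the other. PGR7 rested on 14, 104, 60 and 3 estimated reads and FLU on 50, 152, 0 and 20. In the library labelled mutant, 7.43% of the genes in the members' range of means were listed at 0. Of the heme, bilin and siroheme branches, 7 of 9 genes had a mean of at least 1 FPKM, and 3 were higher and 2 lower with kanamycin in the control line. The counts were 2 and 2 in mutant against control, 1 and 1 in mutant + kanamycin against control + kanamycin, and 2 and 2 against mutant. Beside the counts of these 4 comparisons the shares of all genes were 24.3% and 35.8%, 20.1% and 43.3%, 32.2% and 28.4%, and 39.0% and 23.1%. GUN2, a heme oxygenase, was at 52.8, 135, 80.5 and 84.0 FPKM. FC-II, a ferrochelatase that competes with Mg-chelatase for protoporphyrin IX, was at 17.4, 32.5, 140 and 47.3 FPKM. HO2, related to heme oxygenase, was at 31.7, 5.77, 44.7 and 25.3 FPKM, and UPM1, a methyltransferase of siroheme synthesis, at 59.1, 26.7, 12.8 and 14.3 FPKM.

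Of the chlorophyll cycle and breakdown genes, 9 of 11 had a mean of at least 1 FPKM, and in mutant + kanamycin against mutant 5 were at least 2-fold lower and 3 higher, beside 23.1% and 39.0% of all genes with such a mean, with a median log2 difference of -1.78. The 3 higher are near the background. The 5 lower genes had 2 to 30 estimated reads in mutant + kanamycin, and the 3 higher had 0 or 1 in mutant. Higher and lower were 2 and 3 in control + kanamycin against control, 3 and 3 in mutant against control, and 2 and 3 in mutant + kanamycin against control + kanamycin. Beside these counts the shares of all genes were 24.3% and 35.8%, 20.1% and 43.3%, and 32.2% and 28.4%. NYC1, a chlorophyll b reductase, was at 18.8 FPKM in control, 22.3 in control + kanamycin, 113 in mutant and 20.9 in mutant + kanamycin. ATCLH1, a chlorophyllase, was at 8.42 FPKM, listed at 0, at 62.2 and at 2.14 in the same order, and ATRCCR, a reductase of red chlorophyll catabolite, was at 21.3, 7.01, 33.5 and 7.79 FPKM. These 3 genes were highest in the library labelled mutant, in which CHLD, PORB, PORC and CHLG were lowest. The list as a whole did not share this, as 3 other genes of it were at least 2-fold lower there than in control. AT1G44000, of the STAY-GREEN family, was highest in control + kanamycin (33.5, 70.2, 29.2 and 20.5 FPKM).

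Among the regulators 7 of 8 had a mean of at least 1 FPKM. With kanamycin in the control line 5 of the 7 were at least 2-fold higher and 0 lower, beside the 24.3% and 35.8% of all genes with such a mean, and the median log2 difference was 1.45. Of these 5, HY5 and GNC, named here after their values were seen, had 0 and 1 estimated reads in control. In mutant against control 2 were higher and 2 lower, in mutant + kanamycin against control + kanamycin 1 and 2, and against mutant 2 and 0. Beside these counts the shares of all genes were 20.1% and 43.3%, 32.2% and 28.4%, and 39.0% and 23.1%. GLK2, an activator of photosynthesis genes, was at 18.5 FPKM in control, 41.7 in control + kanamycin, 54.8 in mutant and 47.1 in mutant + kanamycin, lowest in control as HEMA1, CHLH, CHLI1, CHLM and CRD1 were. Its relative GPRI1 (GLK1) was at 3.78, 3.96, 4.49 and 32.4 FPKM. POC1 (PIF3), a phytochrome-interacting factor known as a repressor of the pathway in the dark, was at 13.5, 46.6, 10.4 and 11.6 FPKM. GUN1, of plastid-to-nucleus signalling, was at 62.2, 46.0, 28.9 and 46.8 FPKM.

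**Figure D5:**
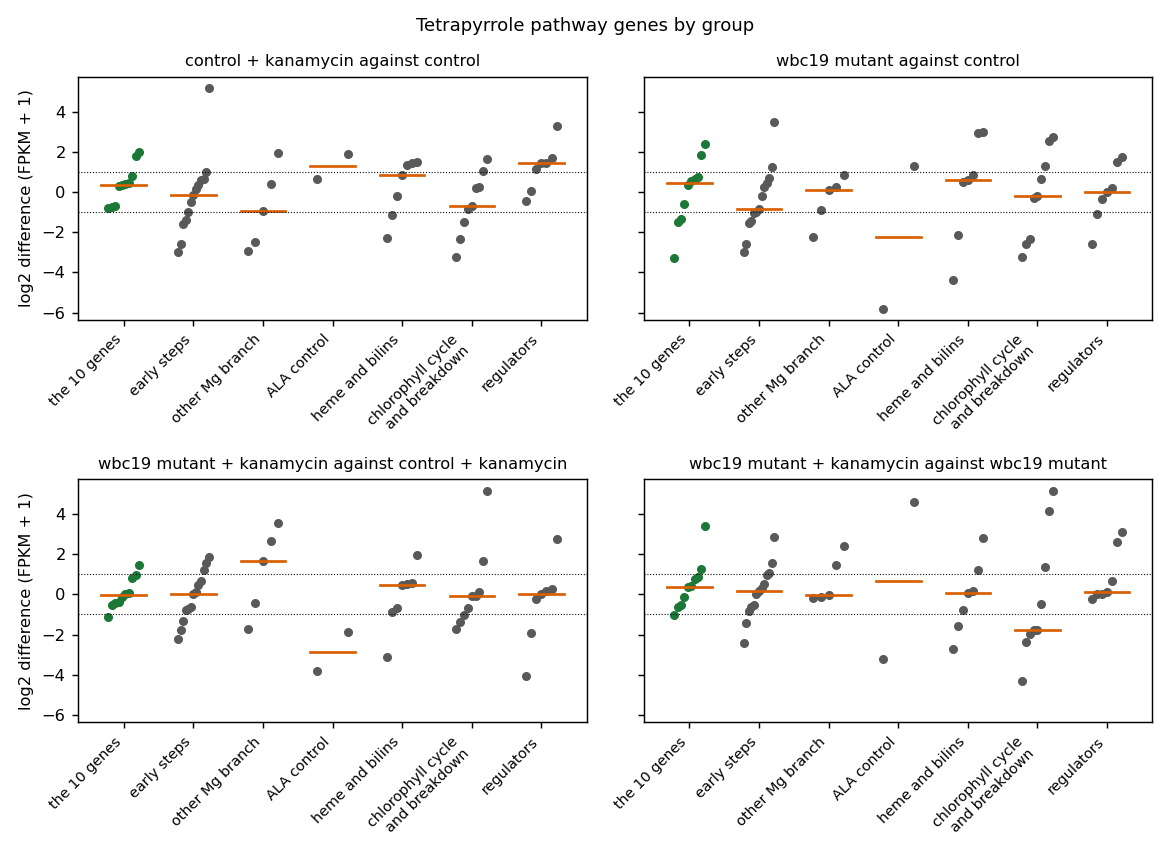
Log2 differences of FPKM + 1 in the 4 comparisons for the 10 genes (green) and for the genes of the 6 lists with a mean of at least 1 FPKM (grey), 1 point per gene; orange lines are medians and dotted lines mark 2-fold. In control + kanamycin against control 5 of 7 regulators lie above the upper dotted line. In mutant + kanamycin against mutant 5 of 9 genes of the chlorophyll cycle and breakdown lie below the lower one. The latter 5 had 2 to 30 estimated reads in mutant + kanamycin.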

How the data were processed

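Poly(A) RNA of 4 seedling libraries, 1 per condition, was fragmented and sequenced from one end. The authors clipped the reads with the FASTX toolkit, used TopHat2 2.0.5 for alignment to TAIR10 and Cufflinks 2.0.2 for assembly, and obtained FPKM (headed rpkm in the deposited table) from Cuffdiff 1.3.0. The deposited table also holds the fold changes, p-values, q-values and test status of the authors' comparisons, and none was used. Of 33624 rows, 78 with differing copies of a value and 7 blank ones were left out, and 27 values of 0.01 were read as 0. Differences are of log2(FPKM + 1). Reads were estimated from the FPKM steps and RefSeq TAIR10.1 transcript lengths less 200 bases, and of values worth 0.5 to 2.5 reads 79.9% in control, 81.2% in control + kanamycin, 86.7% in mutant and 77.9% in mutant + kanamycin lay within 0.2 of a whole number. These shares rest on 1331, 197, 180 and 1094 values in that order. The step was chosen to make low values whole, so the shares do not test it. The size rule and intervals were tried on simulated data with counting error only. That trial held no differences between plants or libraries, so it cannot tell how often unchanged genes pass the rule here. The members and lists were chosen with earlier results of these data known. Named are all 10 members, of each list up to 4 genes by mean FPKM with a mean of at least 5 and a 2-fold difference in at least 1 comparison, and the paralogs HEMA2, CHLI2 and PORA. Other genes named overlap a member. The alternatives were other pseudocounts, filters, scalings, lengths and a larger size. Python 3.11.15, numpy 2.4.6, pandas 2.3.3, scipy 1.17.1 and matplotlib 3.10.9 were used.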

Additional observations from a re-analysis of the deposited data

Results flagged for a closer look

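For 5 of the 10 genes the log2 difference between kanamycin and no kanamycin had opposite signs in the control line and in the line labelled mutant, with both counting intervals excluding a ratio of 1. It was 1.99 in the control line and -1.001 in the line labelled mutant for HEMA1, 0.34 and -0.55 for CHLH, and 0.45 and -0.60 for CRD1. PORB went from -0.82 to 0.74 and CHLG from -0.70 to 3.39, the latter on 8 estimated reads in the library labelled mutant. Opposite signs alone were found for 7 of 10 members and for 48.5% of the 2301 genes in the members' range. The share of those genes with both intervals excluding 1 was not computed. Each value compares 1 library with another, and the difference between the lines was not tested.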

How the results depend on the processing

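No paired analysis was possible because each condition has 1 library and the labels give no replicate numbers, and for the same reason no library could be left out. No difference of the 40 (10 genes in 4 comparisons) moved beyond its counting interval with a pseudocount of 0.1 or 5 FPKM, and 37 of 40 stayed within it under each rescaling. In mutant + kanamycin against control + kanamycin, rescaling by median ratio or upper quartile gave 2 members at least 2-fold higher and 0 lower in place of 1 and 1, and a larger size, a log2 difference of at least 1.5, gave 0 and 0. In mutant + kanamycin against mutant the count of lower members went from 1 to 0 with median ratio, with a pseudocount of 5 FPKM and with the larger size, which also took the higher ones from 2 to 1. In mutant against control the larger size left 1 lower member of 3. The cause was not tested where a rescaling moved a count. The medians over the 10 genes moved by less than the spread of the members, although that of mutant + kanamycin against control + kanamycin went from -0.05 to 0.13 with median ratio and 0.10 with upper quartile. In the order control + kanamycin against control, mutant against control, mutant + kanamycin against control + kanamycin and mutant + kanamycin against mutant, median ratio shifted an abundant gene by -0.06, -0.02, 0.18 and 0.14 on the log2 scale and upper quartile by -0.10, 0.15, 0.15 and -0.10. Without the filter of 5 FPKM the share of all genes past 2-fold fell from between 23.9% and 37.2% to between 9.44% and 22.8%. Estimated reads changed by -12.5% to 15.2% with other lengths, which leaves out the doubt about depth given above. Values on few reads, such as CHLG in the library labelled mutant, are the least certain.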
